A study of Danio rerio with 170 samples.

Results

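The collagen genes were taken as every zebrafish gene whose symbol, in capitals or small letters, consists of col, a family number, the letter a and a chain number. In the gene counts of embryos exposed to 15 per- and polyfluoroalkyl substances (PFAS), 57 of 32520 genes met this rule, and all 57 passed the filter on low counts that left 21928 genes for testing. In the time course of Nafion byproduct 2 (NB2), 59 of 26992 genes met the rule and all 59 were among the 24853 genes tested. The 57 genes were split by family number into 10 fibrillar genes (families 1, 5, 24 and 27), 11 cartilage genes (families 2, 9, 10 and 11), 12 basement membrane genes (families 4, 8, 15 and 18), 9 epidermal or fin genes (families 7, 12, 14 and 17) and 15 others (families 6, 16, 19, 21, 23 and 28). The class names are working names for families, and several of these genes are also used in other tissues.

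Collagens are extracellular proteins in which 3 chains wind into a triple helix. Type I, with type V as a partner, forms the tension-bearing fibrils of skin, bone and fin, whereas type II with types IX and XI forms the thinner fibrils of cartilage and of the notochord sheath, and type X is the short-chain collagen of hypertrophic cartilage and forming bone. Type IV and the related network and multiplexin chains build basement membranes, type VII anchors the epidermal basement membrane to the dermis, type XVII is a transmembrane chain of the hemidesmosomes of basal epidermal cells, and type VI forms beaded microfilaments around muscle fibres and other cells. The chains are hydroxylated and folded in the endoplasmic reticulum, secreted, cleaved by procollagen proteinases, crosslinked by lysyl oxidases, held by integrin and discoidin receptors and broken down by metalloproteinases and cathepsins.

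All embryos were Tropical 5D wild-type zebrafish kept in 1% DMSO, and exposure started at 6 hours post fertilization (hpf). Each 48 hpf library came from a pool of 10 whole embryos, so fewer cells of a type and less RNA per cell cannot be told apart. Exposure Round 1 held 6 vehicle controls (Control-A, 1 for each collection day) and 4 pools of each of PFAS 1 (9-chloro-perfluorononanoic acid, 100 µM), PFAS 3 (PFOS, 13.8 µM), PFAS 5 (PFHpS, 100 µM), PFAS 6 (N-ethyl perfluorooctane sulfonamide, 100 µM), PFAS 7 (39.7 µM of 1-(perfluorofluorooctyl)propane-2,3-diol), PFAS 8 (53 µM of 1H,1H,11H,11H-perfluorotetraethylene glycol), PFAS 9 (2,2,3,3-tetrafluoropropyl acrylate, 62 µM), PFAS 10 (perfluorooctane sulfonamide, FOSA, 8 µM), PFAS 11 (perfluorohexane sulfonamide, FHxSA, 28 µM), PFAS 12 (100 µM of 3H-perfluoro-2,2,4,4-tetrahydroxypentane) and a perfluorodecane-1,10-diol (PFAS 13, 25 µM). Exposure Round 2 held 4 controls from 1 day (Control-B) and 4 pools of each of PFAS 2 (NB2, 30 µM), PFAS 4 (perfluoro-3,6,9-trioxatridecanoic acid, 50 µM) and the diacrylates PFAS 14 and PFAS 15 (20 µM each). The time course held NB2 at 73 µM and its vehicle controls (Control-C) at 48, 72 and 96 hpf in pools of 8 animals, with 4 or 5 expression columns per group. For most chemicals the dose was set by the authors for a like incidence of malformation at a later age rather than matched. PFAS 12 stayed below that incidence at its dose, and PFAS 14 and PFAS 15 were given at a dose below the one that malforms. Round 1 pools were also chosen partly by the later incidence in embryos of the same exposure, so the chemicals are placed side by side below and only PFAS 14 and PFAS 15 are compared with each other.

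Round 1 pools of 1 chemical came from several collection days and those of Round 2 from 1 day. All groups were fitted in 1 model, so the p-values rest on the spread between pools within groups, taken over both rounds together. The Round 2 differences themselves come from 1 day, and whether they recur on other days was not tested. Library totals ran from 14265378 to 30363275 counts with a median of 23474909.5 over the 70 libraries. PFAS 5 replicate 1 was left out of the fit, as the authors left out a PFAS 5 replicate as an outlier, which leaves 69 libraries. The reads come from the 3′ end of each transcript, so the values below are compared between libraries for 1 gene and not between genes. They are given as counts scaled to library size by TMM (CPM), and fold changes as log2 values ± SE against the controls of the same round. This SE was worked back from the log2 fold change and the F value of the edgeR test, so it is approximate. A gene is called when its adjusted p in edgeR's quasi-likelihood test, taken over all 21928 genes, is under 0.05. A symbol in capitals is that of the human counterpart, and where 2 zebrafish genes share such a name the gene identifier tells them apart.

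Between 7 and 19 of the 57 collagen genes were called in each of PFAS 8, 9, 10, 11, 12 and 13, and most of the calls were decreases. The calls were 1 higher and 6 lower in PFAS 8, 0 higher and 18 lower in PFAS 9, 3 higher and 9 lower in PFAS 10, 1 higher and 15 lower in PFAS 11, 1 higher and 13 lower in PFAS 12, and 5 higher and 14 lower in PFAS 13. Over all genes tested the share called was 3.84%, 6.9%, 14.1%, 14.1%, 14.2% and 16.2% in PFAS 8 to 13 in that order. The share called lower was 1.74%, 3.84%, 6.83%, 7.52%, 7.47% and 8.52%, and the share called higher 2.1%, 3.06%, 7.26%, 6.58%, 6.77% and 7.63%. Many collagen genes are well above the level of the typical gene, so the same counts were made at a mean of at least 10 CPM, a limit set after the data were seen. There 33 collagen genes remain, of which 18.2%, 51.5%, 27.3%, 42.4%, 36.4% and 39.4% were called lower in PFAS 8 to 13, beside 3.62%, 7.8%, 14.3%, 14.2%, 13.2% and 14.9% of the 7047 genes past that limit. The share called higher among the 33 was 3.03%, 0%, 9.09%, 3.03%, 3.03% and 9.09%, beside 5.52%, 7.54%, 15.4%, 14.2%, 14.6% and 16.8%. These 6 comparisons share the same 6 control libraries and are not independent of each other.

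The median log2 fold change of the 57 genes in PFAS 8 to 13 was -0.12, -0.22, -0.09, -0.20, -0.20 and -0.14, while that of all genes tested lay between -0.022 and -0.006. Over the 6 chemicals 29 of the 57 genes were called at least once, 20 of them only as lower, 6 only as higher and 3 in both directions. The other 28 were called in none. Called lower in all 6 were 4 genes, the cartilage genes COL10A1 (ENSDARG00000054753) and COL9A1 (ENSDARG00000073699) and the type VI genes COL6A2 and COL6A3, and the epidermal col17a1a was called lower in 5. How many of all genes tested were called at least once, or lower in 5 or all 6, was not counted. These counts over the 6 chemicals therefore have no background beside them.

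**Figure D1:**
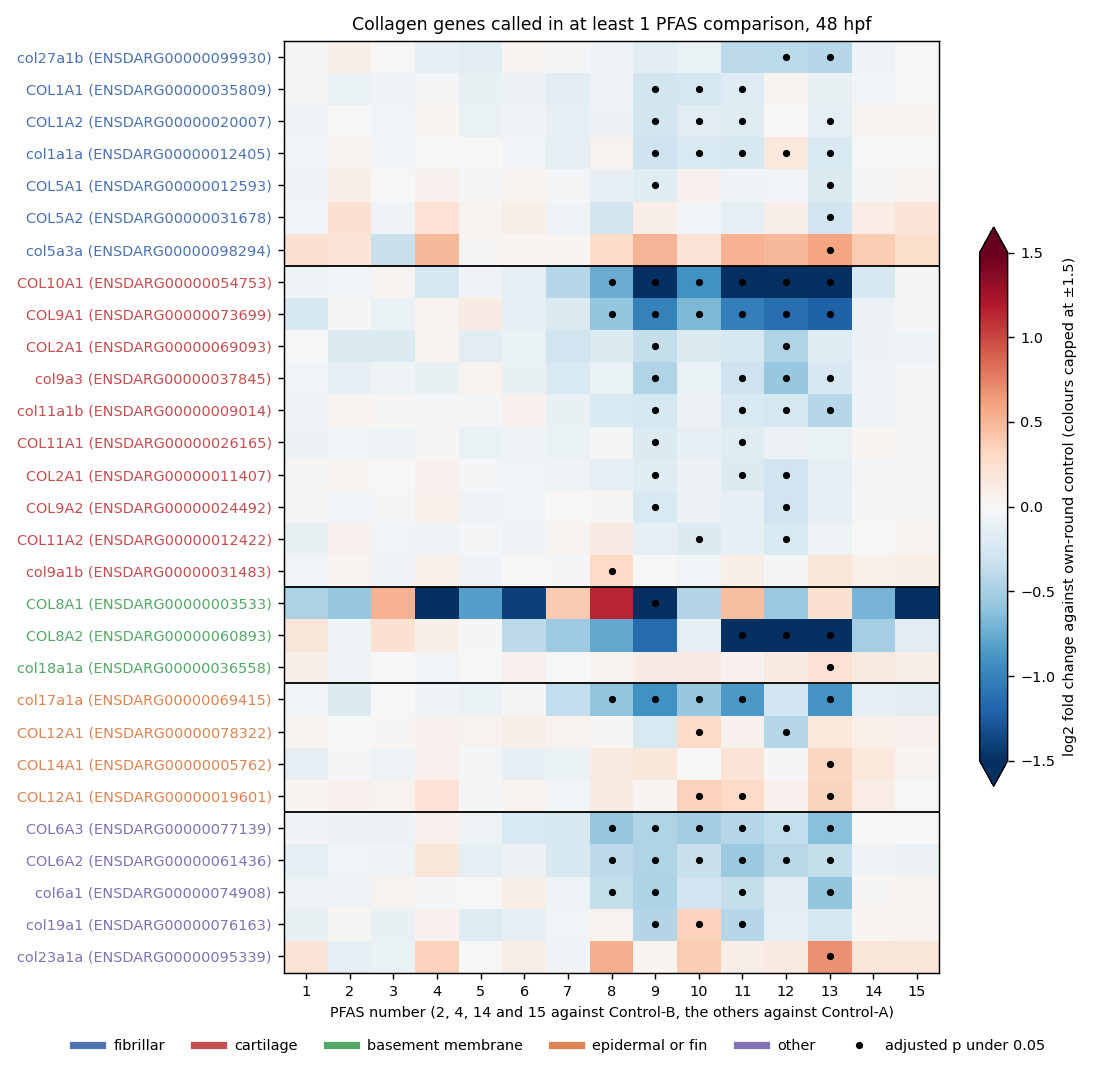
Log2 fold changes of the 29 collagen genes called at least once (rows, grouped by class) in each of the 15 PFAS against the controls of the same round (columns), on a colour scale capped at 1.5 either way, with dots for genes called at an adjusted p under 0.05. The dots lie in the columns of PFAS 8 to 13, where 7 to 19 of 57 genes were called and COL10A1, COL9A1, COL6A2 and COL6A3 are the rows lowered in all 6.

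Among the cartilage genes the number called lower of 11 was 2, 8, 3, 6, 8 and 4 in PFAS 8 to 13, and only PFAS 8 had a cartilage gene called higher. COL10A1 (ENSDARG00000054753), the gene of the hypertrophic cartilage collagen, had 31.5, 23.9, 20.3, 20.6, 17.3 and 21.2 CPM in the 6 control libraries. It had 7.34, 5.75, 2.19 and 5.08 CPM in PFAS 9 and 4.68, 4.38, 2.51 and 2.59 CPM in PFAS 13. Every library of both chemicals was below every control library.

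In PFAS 11 COL10A1 had 4.68, 2.97, 5.97 and 9.46 CPM, and in PFAS 12 it had 6.22, 7.45, 8.29 and 9.38 CPM. The values in PFAS 10 were 12.5, 10.2, 12.97 and 12.4 CPM and those in PFAS 8 were 16.3, 15.5, 10.6 and 10.97 CPM. None of these 16 libraries reached the lowest control library. From PFAS 8 to PFAS 13 the log2 fold changes were -0.74 ± 0.20, -2.12 ± 0.22, -0.90 ± 0.21, -1.99 ± 0.22, -1.53 ± 0.22 and -2.64 ± 0.23, with edgeR adjusted p of 0.02135, 4.787e-11, 0.0008027, 6.271e-11, 8.418e-08 and 4.37e-15. The PFAS 8 call was lost with the collection day as a block and without Control-A replicate 1, PFAS 8 replicate 3 or PFAS 8 replicate 4 (edgeR adjusted p up to 0.1047), and the other 5 calls held under every alternative run. Each exposed library of these 6 chemicals was also below the control of its own collection day.

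COL9A1 (ENSDARG00000073699) encodes a chain of type IX collagen, which coats the cartilage fibril. Its level was 55.6, 45.7, 44.5, 43.9, 51.2 and 41.4 CPM in the controls, 20.3, 21.8, 22.4 and 21.1 CPM in PFAS 12 and 20.4, 21.2, 20.4 and 19.2 CPM in PFAS 13. In PFAS 9 it was 23.3, 23.6, 20.5 and 25.7 CPM and in PFAS 11 26.2, 17.7, 24.4 and 24.4 CPM. No library of those 4 chemicals came near the lowest control, with log2 fold changes of -1.02 ± 0.11 (PFAS 9), -1.02 ± 0.11 (PFAS 11), -1.14 ± 0.11 (PFAS 12) and -1.21 ± 0.11 (PFAS 13). PFAS 8 had 27.8, 34.5, 30.8 and 32.99 CPM and PFAS 10 had 27.5, 28.6, 32.3 and 29.4 CPM, which is a smaller decrease of -0.58 ± 0.11 and -0.67 ± 0.11 on the log2 scale. All 6 were called (edgeR adjusted p from 9.28e-15 to 0.0001569), all 24 exposed libraries were below the lowest control library, and no alternative ended a call.

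The other type IX genes were called in both directions. The gene col9a3 had 55.9, 58.8, 50.8, 53.3, 61.9 and 58.6 CPM in the controls and 37.6, 38.2, 36.2 and 41.3 CPM in PFAS 12, with no overlap, and was called lower in PFAS 9 (-0.45 ± 0.08), PFAS 11 (-0.31 ± 0.08), PFAS 12 (-0.56 ± 0.08) and PFAS 13 (-0.24 ± 0.08). The last of these was lost in 8 of 15 alternatives (edgeR adjusted p up to 0.1461), among them those without Control-A replicate 2, 5 or 6 or PFAS 13 replicate 1, 3 or 4. By contrast col9a1b had 302, 289, 293, 268, 305 and 292 CPM in the controls and 380.0, 379, 335 and 345 CPM in PFAS 8, where all 4 libraries were above all 6 controls and the gene was called higher (0.30 ± 0.07, edgeR adjusted p = 0.004745). In the other 5 chemicals its log2 fold change lay between -0.04 and 0.18 without a call. COL9A2, named here after its values were seen, was called lower under every alternative in PFAS 9 and PFAS 12 (-0.22 ± 0.06 and -0.29 ± 0.06).

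Of the 2 genes named COL2A1, which encode the main fibril chain of cartilage and notochord sheath, ENSDARG00000011407 had 379, 374, 376, 381, 373 and 415 CPM in the controls and 281, 326, 315 and 323 CPM in PFAS 12. It was called lower in PFAS 9 (-0.18 ± 0.05, a call lost in 5 of 15 alternatives, among them those without Control-A replicate 6 or PFAS 9 replicate 2 or 4, with an edgeR adjusted p up to 0.07303), PFAS 11 (-0.20 ± 0.05) and PFAS 12 (-0.30 ± 0.05). The second, ENSDARG00000069093, varied more among the controls, at 773, 646, 927, 878, 919 and 875 CPM, and overlapped with the 512, 586, 701 and 643 CPM of PFAS 12. It was called lower in PFAS 12 (-0.45 ± 0.10) and in PFAS 9 (-0.36 ± 0.10, lost without PFAS 9 replicate 2 or 4, edgeR adjusted p up to 0.0865).

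COL11A1 (ENSDARG00000026165), a chain that sets the width of cartilage fibrils, fell from 902, 907, 924, 865, 899 and 950.5 CPM in the controls to 778, 755, 792 and 815 CPM in PFAS 9, a log2 fold change of -0.21 ± 0.05, and by a similar size in PFAS 11 (-0.18 ± 0.05). Among the genes named after their values were seen, col11a1b was called lower in PFAS 9, 11, 12 and 13 (-0.27, -0.23, -0.26 and -0.42). Only the PFAS 13 call held under every alternative. It was lost in PFAS 9 without Control-A replicate 2, 4 or 5 or PFAS 9 replicate 1 or 2, in PFAS 11 without the same controls or PFAS 11 replicate 1, 2 or 4, and in PFAS 12 without Control-A replicate 5 or PFAS 12 replicate 1 or 2. COL11A2 was called lower in PFAS 10 and PFAS 12 (-0.21 and -0.23), calls lost without Control-A replicate 1, 3 or 5 or PFAS 10 replicate 1, 2 or 3, and without PFAS 12 replicate 3. Summed over the 11 cartilage genes, the controls held 3064 ± 118 CPM (mean ± SD, n = 6), PFAS 9 2586 ± 74.98, PFAS 11 2700.0 ± 111 and PFAS 12 2561 ± 116 (n = 4 each), so that the decreases of COL10A1 and COL9A1 were larger than that of the class as a whole. The sums of PFAS 8 (2962 ± 137), PFAS 10 (2772 ± 234) and PFAS 13 (2793 ± 68.2, n = 4 each) overlapped with the lowest control library, at 2861 CPM. COL11A1 and the COL2A1 genes had means of 863, 750 and 368 CPM over all libraries, so the sums mostly follow them.

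**Figure D2:**
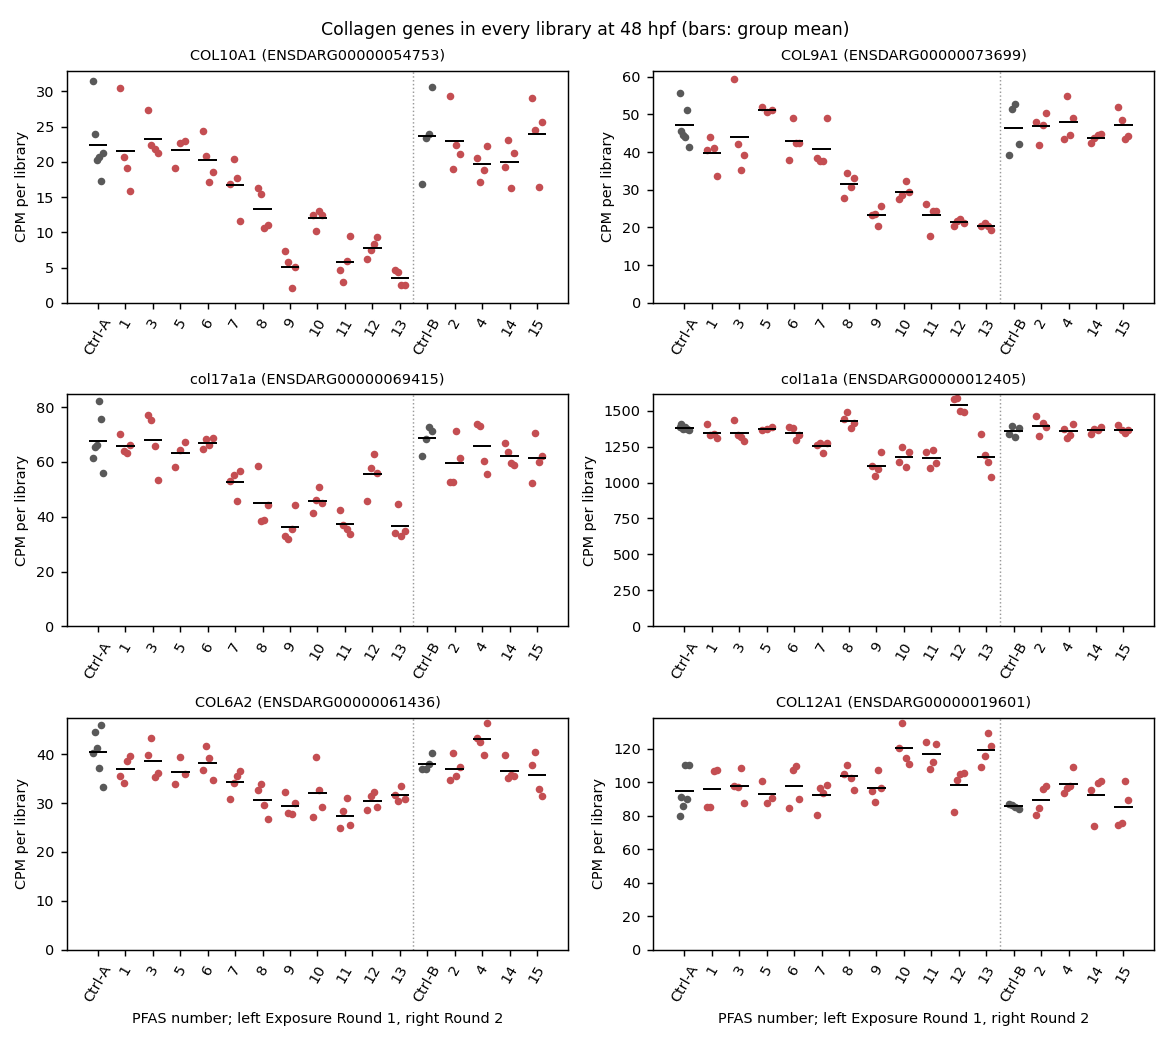
CPM per library (points, axes from 0) of COL10A1, COL9A1, col17a1a, col1a1a, COL6A2 and COL12A1 (ENSDARG00000019601), for Control-A and the Round 1 chemicals left of the dotted line and Control-B and the Round 2 chemicals right of it, with the group mean as a bar. COL10A1 and COL9A1 lie below all controls in each library of PFAS 8 to 13, whereas col1a1a lies below them in PFAS 9, 10, 11 and 13 and above them in PFAS 12.

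Of the 10 fibrillar genes 0, 4, 3, 3, 1 and 5 were called lower in PFAS 8 to 13, and 1 was called higher in PFAS 12 and in PFAS 13. For col1a1a, a chain of the main fibril collagen, the controls were close together at 1385, 1406, 1372, 1383, 1374 and 1368 CPM. PFAS 9 had 1115, 1043, 1094 and 1209 CPM, PFAS 10 had 1142, 1248, 1108 and 1211 CPM and PFAS 11 had 1214, 1104, 1223 and 1134 CPM, all below the lowest control. The gene was called lower in each (-0.31 ± 0.05, -0.23 ± 0.05 and -0.24 ± 0.05, edgeR adjusted p = 3.337e-06, 0.0002465 and 0.00011). In PFAS 13 it had 1334, 1193, 1141 and 1041 CPM and was called lower (-0.23 ± 0.05), again below every control. In PFAS 12 it had 1580.2, 1587, 1495 and 1494 CPM, above every control, and was called higher by 0.16 ± 0.05 (edgeR adjusted p = 0.01765), a call lost without PFAS 12 replicate 1 or 2 (edgeR adjusted p up to 0.07084).

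Other type I genes were lowered in most of the same chemicals. COL1A1 (ENSDARG00000035809) had 959.8, 945, 962, 986, 874 and 947 CPM in the controls and 821, 727, 769 and 802 CPM in PFAS 9 and was called lower in PFAS 9 (-0.28 ± 0.06), PFAS 10 (-0.26 ± 0.06) and PFAS 11 (-0.19 ± 0.06, lost without PFAS 11 replicate 2 with an edgeR adjusted p of 0.05427). COL1A2 had 949.8, 909.5, 846, 969, 937 and 915 CPM in the controls and 752, 743, 736 and 812 CPM in PFAS 9, and its calls were PFAS 9 (-0.28 ± 0.05), PFAS 10 (-0.17 ± 0.05), PFAS 11 (-0.20 ± 0.05) and PFAS 13 (-0.14 ± 0.05). The PFAS 10 call was lost without PFAS 10 replicate 1 (edgeR adjusted p = 0.126), and the PFAS 13 call in 7 of 15 alternatives (edgeR adjusted p up to 0.2055), among them those without Control-A replicate 1, 4 or 5 or PFAS 13 replicate 1 or 4. Neither was called in PFAS 12, at 0.05 ± 0.05 and 0.01 ± 0.05. Whether PFAS 12 differed from the other chemicals was not tested, because the doses differ.

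Type V chains nucleate type I fibrils. COL5A1 had 483, 565, 470.0, 474, 461 and 449.7 CPM in the controls and 423, 425, 413 and 419 CPM in PFAS 13, with no overlap, and was called lower in PFAS 13 (-0.20 ± 0.05) and in PFAS 9 (-0.18 ± 0.05, lost without Control-A replicate 2 or PFAS 9 replicate 3, edgeR adjusted p up to 0.09202). Named after their values were seen, col27a1b was called lower in PFAS 12 and 13 (-0.41 and -0.43), COL5A2 lower in PFAS 13 (-0.29) and col5a3a higher in PFAS 13 (0.59 ± 0.21). The call of col27a1b was lost in PFAS 12 without Control-A replicate 1, 2, 3, 4 or 6 or PFAS 12 replicate 2, 3 or 4 and in PFAS 13 without Control-A replicate 4 or PFAS 13 replicate 2, 3 or 4. That of COL5A2 was lost without Control-A replicate 2, 4 or 5 or PFAS 13 replicate 1, 3 or 4, and that of col5a3a without any 1 library but Control-A replicate 3 and with DESeq2. The fibrillar class held 3796 ± 85.2 CPM in the controls (mean ± SD, n = 6). It held 3147 ± 147, 3357 ± 141, 3324 ± 126 and 3369 ± 194 in PFAS 9, 10, 11 and 13, and 3975 ± 126 in PFAS 12 (n = 4 each). In PFAS 5 and PFAS 7, which had no collagen gene called, it held 3651 ± 51.1 (n = 3) and 3484 ± 68.6 (n = 4). Every library of these 2 chemicals was also below the lowest control, at 3707 CPM, the highest PFAS 5 library by little (3702 CPM). In PFAS 12 the cartilage sum was thus below that of the controls while the fibrillar sum was not.

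**Figure D3:**
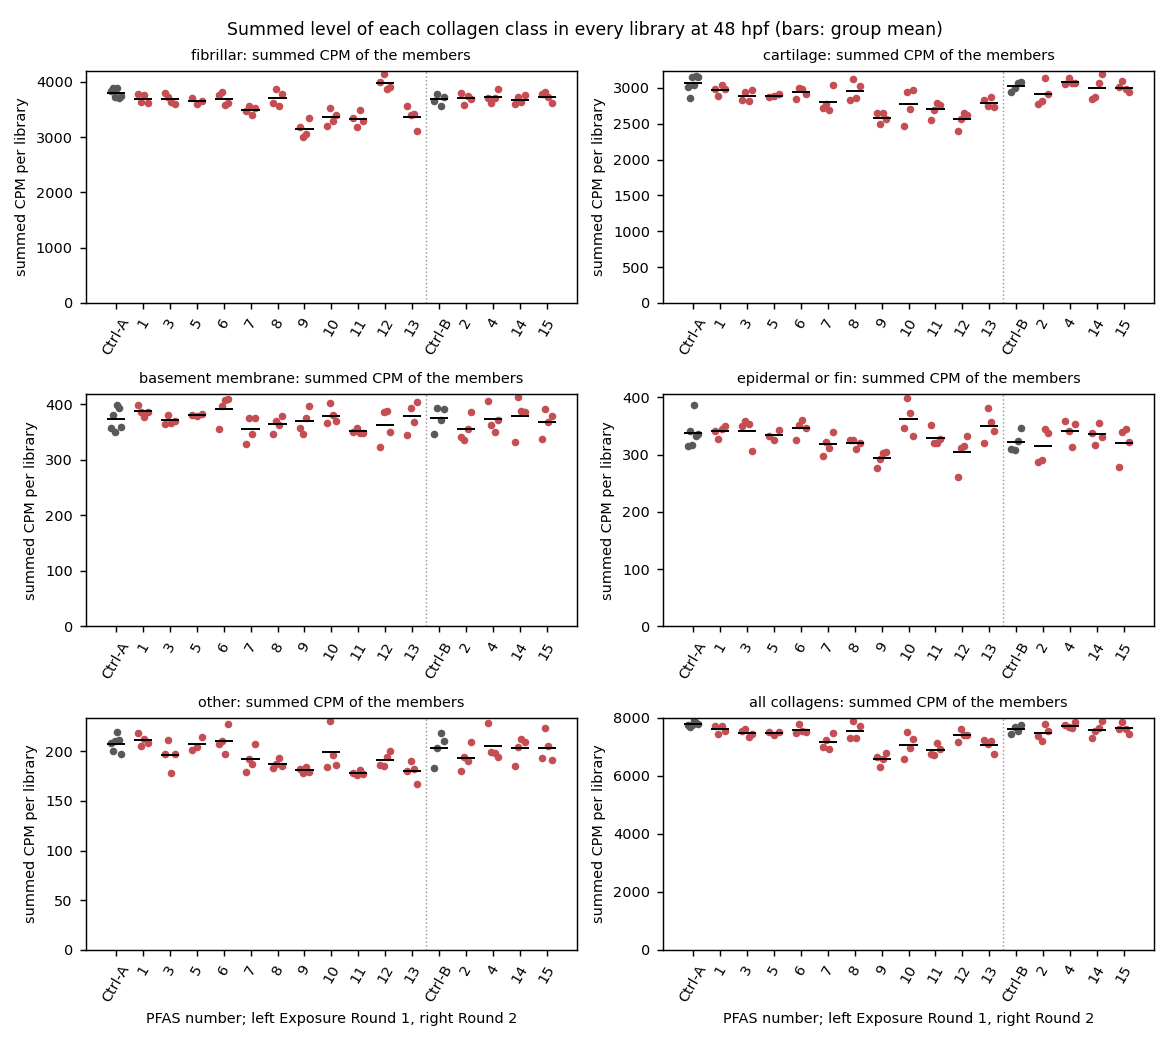
Summed CPM of each collagen class per library (points) with the group mean (bar), for the controls and chemicals of both rounds, on axes that differ between panels. The fibrillar sums of PFAS 5, 7, 9, 10, 11 and 13 lie below those of Control-A, by little in PFAS 5. That of PFAS 12 averages 3975 against 3796 CPM, and the basement membrane sums overlap with the controls in every chemical.

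Of the type VI genes, which are placed among the other collagens, COL6A2 and COL6A3 were called lower in all 6 chemicals, col6a1 in 4, and col6a4a and col6a4b in none. COL6A2 (ENSDARG00000061436) had 40.3, 44.5, 41.3, 37.2, 45.9 and 33.4 CPM in the controls and 24.8, 28.4, 31.02 and 25.4 CPM in PFAS 11, where no library reached the lowest control. Its log2 fold changes were -0.39, -0.45, -0.33, -0.56, -0.41 and -0.36 in PFAS 8 to 13, each with an SE of 0.09, and the PFAS 10 call was lost without PFAS 10 replicate 1 (edgeR adjusted p = 0.08025). COL6A3 (ENSDARG00000077139) had 25.3, 30.3, 29.3, 30.5, 26.5 and 22.02 CPM in the controls, 19.5, 15.95, 17.9 and 20.2 CPM in PFAS 8 and 15.2, 18.3, 20.1 and 17.4 CPM in PFAS 13. It was below every control in both and changed by -0.57, -0.45, -0.52, -0.42, -0.37 and -0.62, with an SE of 0.12 or less, and the PFAS 12 call was lost without PFAS 12 replicate 1 or 2 (edgeR adjusted p up to 0.1314).

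The gene col6a1, whose chain assembles with those of COL6A2 and COL6A3, had 36.6, 35.2, 32, 37.1, 31.1 and 33.2 CPM in the controls and 20.2, 29.5, 18.8 and 23.1 CPM in PFAS 13. It was called lower in PFAS 8 (-0.36 ± 0.10), PFAS 9 (-0.46 ± 0.10), PFAS 11 (-0.36 ± 0.10) and PFAS 13 (-0.58 ± 0.10). The PFAS 8 call was lost in 7 of 15 alternatives (edgeR adjusted p up to 0.1364), among them those without Control-A replicate 1, 2 or 4 or PFAS 8 replicate 1, 2 or 3, and the PFAS 11 call without PFAS 11 replicate 3 (edgeR adjusted p = 0.0644). In PFAS 10 and PFAS 12 it was at -0.28 ± 0.10 and -0.15 ± 0.10 without a call. The gene col28a2a, of a family with von Willebrand factor domains, was called in no chemical, with values from 0.10 to 0.36 in PFAS 8 to 13. Outside type VI, and named after their values were seen, col19a1 (ENSDARG00000076163) was called lower in PFAS 9 and 11 (-0.44 and -0.42) and higher in PFAS 10 (0.35), and col23a1a, a transmembrane chain, was called higher in PFAS 13 (0.68 ± 0.19). The col19a1 calls were lost without Control-A replicate 4 or PFAS 9 replicate 1 or 2, without PFAS 11 replicate 2, and without Control-A replicate 1, 2, 3 or 5 or PFAS 10 replicate 1, 2 or 3, and that of col23a1a without PFAS 13 replicate 3.

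In the epidermal and fin class 1 gene fell widely, and the rises were those of fibril-associated genes. The hemidesmosome gene col17a1a had 61.3, 65.4, 66.2, 82.2, 75.7 and 55.9 CPM in the controls, 32.9, 31.8, 35.7 and 44.5 CPM in PFAS 9 and 42.5, 37.1, 35.5 and 33.6 CPM in PFAS 11. In PFAS 13 it had 34.1, 44.6, 32.8 and 34.8 CPM, in PFAS 10 41.5, 45.9, 50.7 and 44.9 CPM and in PFAS 8 58.5, 38.4, 38.7 and 44.3 CPM. With the exception of 1 PFAS 8 library, none of these 20 libraries reached the lowest control. It was called lower in PFAS 8 (-0.59 ± 0.11), PFAS 9 (-0.91 ± 0.11), PFAS 10 (-0.57 ± 0.11), PFAS 11 (-0.87 ± 0.11) and PFAS 13 (-0.89 ± 0.11), with edgeR adjusted p from 2.062e-09 to 0.0002428 and under every alternative. In PFAS 12 it had 45.7, 57.9, 62.9 and 56.02 CPM, a change of -0.29 ± 0.11 at an edgeR adjusted p of 0.06685.

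Type XII collagens lie on the surface of type I fibrils. COL12A1 ENSDARG00000019601 had 80.1, 91.4, 85.8, 110.0, 89.9 and 110.4 CPM in the controls and 120.3, 136, 115 and 111 CPM in PFAS 10, and was called higher in PFAS 10 (0.35 ± 0.09), PFAS 13 (0.33 ± 0.09) and PFAS 11 (0.30 ± 0.09, lost without Control-A replicate 1 or PFAS 11 replicate 1 or 4, edgeR adjusted p up to 0.06233). COL12A1 ENSDARG00000078322 had 105, 119, 102, 117, 107 and 110.0 CPM in the controls and 68.5, 84.3, 74.2 and 100.1 CPM in PFAS 12, where every library was below the controls and the gene was called lower (-0.43 ± 0.08). In PFAS 10 it was called higher (0.28 ± 0.08, lost without PFAS 10 replicate 2, edgeR adjusted p = 0.08451). COL14A1, a further fibril-associated chain named after its values were seen, was called higher in PFAS 13 (0.32 ± 0.10) under every alternative. The anchoring fibril gene col7a1 was called in none, with values from -0.29 to 0.08.

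Of the 12 basement membrane genes 1 was called in PFAS 9, 11 and 12, 2 in PFAS 13 and 0 in PFAS 8 and 10, shares close to or below those of all genes given above. The type IV genes with the most counts, col4a5 and col4a6, had 96.5, 95.5, 99.02, 106, 105 and 98.6 and 99.8, 133, 102, 118, 129 and 110.2 CPM in the controls. In PFAS 8 to 13 their log2 fold changes ran from -0.14 to 0.07 and from -0.17 to 0.10, and COL4A1 ran from -0.44 to 0.03, none of them called. The class sum was 373 ± 20.99 CPM (mean ± SD, n = 6) in the controls and between 351 and 379.5 CPM on average in these 6 chemicals.

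The gene col18a1a, whose chain carries endostatin, had 89.8, 81.9, 83.5, 95.5, 80.9 and 87.98 CPM in the controls and 89.5, 96.6, 105 and 113 CPM in PFAS 13 and was called higher there (0.22 ± 0.07), a call lost in 7 of 15 alternatives (edgeR adjusted p up to 0.2097), among them those without Control-A replicate 2, 3 or 5 or PFAS 13 replicate 3 or 4. The remaining basement membrane calls were on type VIII genes with few reads. COL8A2 (ENSDARG00000060893) had 31, 27, 30, 27, 46 and 4 counts in the controls and 8, 2, 0 and 3 counts in PFAS 13. It was called lower in PFAS 11 (-1.86 ± 0.59), PFAS 12 (-1.94 ± 0.59) and PFAS 13 (-2.81 ± 0.65), although the control with 4 counts lies among the exposed libraries. The PFAS 11 call was lost without Control-A replicate 5 or PFAS 11 replicate 1 or 4 (edgeR adjusted p up to 0.08618) and the PFAS 12 call without PFAS 12 replicate 4 (edgeR adjusted p = 0.07911). COL8A1 (ENSDARG00000003533) had 4, 12, 2, 5, 1 and 1 counts in the controls and 0 in each PFAS 9 library, which is at least 5.18-fold lower against a floor of 3 counts over the group. That call was lost without Control-A replicate 2, which holds 12 of the 25 control counts, and without any 1 of the 4 PFAS 9 libraries (edgeR adjusted p up to 0.1078).

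Groups that do not overlap give a view of the same data without a model. Every exposed library was below every control for 6, 16, 8, 12, 9 and 9 of the 57 genes in PFAS 8 to 13, where the share of all genes tested was 2.53%, 3.73%, 4.91%, 6.04%, 5.79% and 6.67%. Those with every exposed library above every control numbered 1, 1, 2, 0, 3 and 2, beside 2.6%, 3.39%, 5.67%, 5.56%, 5.16% and 6.08% of all genes.

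In the other 9 chemicals no collagen gene was called by edgeR. For PFAS 1, 2, 3, 4, 5, 6, 14 and 15 the share of all genes called was 0%, 0%, 0.041%, 0.00456%, 0.0547%, 0.105%, 0% and 0%, with 0 collagen genes called by DESeq2 in each. In the same order 1, 1, 4, 4, 0, 0, 0 and 0 collagen genes had an unadjusted p under 0.05. The share of all genes with such a p was 4.15%, 4.13%, 3.96%, 5.9%, 3.85%, 4.73%, 3.12% and 3.07%. For the 33 collagen genes with at least 10 CPM the 95% intervals of the log2 fold change lay between -0.45 and 0.51 in PFAS 1, -0.71 and 0.44 in PFAS 2, -0.55 and 0.45 in PFAS 3, -0.70 and 0.44 in PFAS 4, -0.49 and 0.79 in PFAS 5, -0.55 and 0.57 in PFAS 6, -0.73 and 0.54 in PFAS 14 and -0.62 and 0.51 in PFAS 15. These are the widest bounds over the 33 genes, and those of single genes with many reads are narrower.

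COL10A1 (ENSDARG00000054753) shows the spread in these groups. It had 16.9, 23.4, 23.9 and 30.6 CPM in Control-B, 29.3, 19.01, 22.3 and 21.1 CPM in PFAS 2 and 20.6, 17.1, 18.8 and 22.2 CPM in PFAS 4. In PFAS 1 it had 30.4, 20.7, 19.1 and 15.9 CPM, in PFAS 3 27.3, 22.3, 21.8 and 21.2 CPM, in PFAS 5 19.1, 22.7 and 23.02 CPM and in PFAS 6 24.4, 20.8, 17.2 and 18.5 CPM. All of these groups overlapped with their controls.

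PFAS 7 lay between these groups. None of its 57 genes was called (0.944% of all genes were), but 12 had an unadjusted p under 0.05, beside 8.23% of all genes. The median log2 fold change of the 57 was -0.08. COL10A1 (ENSDARG00000054753) had 16.9, 20.3, 17.8 and 11.6 CPM, and its group overlapped with the controls. The smallest adjusted p belonged to col17a1a, at 52.9, 55.1, 45.7 and 56.5 CPM and -0.37 ± 0.11 on the log2 scale (edgeR adjusted p = 0.09268). DESeq2 called 1 collagen gene lower in PFAS 7, and edgeR called 1 lower without Control-A replicate 6.

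The diacrylates PFAS 14 and PFAS 15, at 20 µM and from the same day, allow, at that low dose, 1 direct comparison of related compounds. No collagen gene differed between them by edgeR or DESeq2 (0% of all genes did). An unadjusted p under 0.05 was seen for 1 collagen gene, beside 2.65% of all genes. Over the 33 genes with at least 10 CPM the differences ran from -0.26 to 0.40 on the log2 scale, and their 95% intervals from -0.70 to 0.76, with 30 of the 33 intervals inside a log2 difference of 0.5 either way.

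Placed side by side at their own doses, the sulfonamides FOSA (PFAS 10, 8 µM) and FHxSA (PFAS 11, 28 µM) had 12 and 16 collagen genes called, and the N-ethylated sulfonamide PFAS 6 at 100 µM had 0. The share of all genes called was 14.1%, 14.1% and 0.105%, so the whole response differed in size as well. The log2 fold change of COL10A1 (ENSDARG00000054753) was -0.90 ± 0.21, -1.99 ± 0.22 and -0.15 ± 0.20 in PFAS 10, 11 and 6, and that of col17a1a was -0.57 ± 0.11, -0.87 ± 0.11 and -0.02 ± 0.11. The diols PFAS 7 at 39.7 µM and PFAS 13 at 25 µM had 0 and 19 genes called, beside 0.944% and 16.2% of all genes. COL10A1 was at -0.43 ± 0.20 and -2.64 ± 0.23. These doses differ, and no difference between the chemicals was tested.

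Genes that fold, modify, cut and hold collagen had calls in both directions. Of 28 folding and modification genes, 3 were called higher and 1 lower in PFAS 8, 1 and 2 in PFAS 9, 5 and 3 in PFAS 10, 1 and 1 in PFAS 11, 0 and 2 in PFAS 12, and 4 and 1 in PFAS 13, or 14.3%, 10.7%, 28.6%, 7.14%, 7.14% and 17.9% called beside 3.84%, 6.9%, 14.1%, 14.1%, 14.2% and 16.2% of all genes. In the cleavage, breakdown and receptor lists 0% to 17.6% were called in each of these chemicals. SERPINH1 (ENSDARG00000019949), the collagen chaperone of the endoplasmic reticulum and a heat shock protein, was called higher in PFAS 10 (1.66 ± 0.18), PFAS 13 (1.54) and PFAS 11 (0.54). A further SERPINH1 gene on the list (ENSDARG00000075954) was called in no chemical. The prolyl hydroxylase genes P4HA1 and P4HA2, which stabilize the triple helix, were called higher in PFAS 10 (1.43 and 1.22), PFAS 13 (0.98 and 1.11) and PFAS 8 (0.69 and 0.52), and CREB3L1, a transcription factor of collagen secretion, was called lower in PFAS 8, 9, 11 and 13 (-0.35, -0.53, -0.34 and -0.52). TMEM131, which takes part in collagen secretion, was called higher in PFAS 8, 10 and 13 (0.31, 0.31 and 0.34), and PLOD1, a lysyl hydroxylase, was called higher in PFAS 10 (0.41) and lower in PFAS 12 (-0.55). Named after their values were seen, PPIB, P4HB and COLGALT1 were the 3 genes of this list called lower in PFAS 10.

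Among 19 cleavage and crosslinking genes, the lysyl oxidase genes LOXL4 (ENSDARG00000025089) and LOXL1 were called lower in PFAS 9 (-0.83 and -0.39) and PFAS 13 (-1.49 and -0.53), BMP1 (ENSDARG00000028071), the procollagen C-proteinase, in PFAS 11 and 12 (-0.60 and -0.38), and loxl5b higher in PFAS 10 and 13 (1.35 and 0.93), with 1 call each for adamts2a, an N-proteinase gene (-1.25 in PFAS 9), and pcolcea, an enhancer of the C-proteinase (0.55 in PFAS 12). Of 17 breakdown genes, MMP9, a gelatinase, was called higher in PFAS 9 and 13 (1.78 and 2.19), the inhibitor TIMP2 (ENSDARG00000075261) in PFAS 7, 9 and 11 (0.77, 0.59 and 1.03) and the cathepsin CTSB in PFAS 11 and 13 (1.08 and 0.59), while MMP2 was called lower in PFAS 10 (-0.70) and MMP14 (ENSDARG00000002235) in PFAS 13 (-0.33), and the cathepsin CTSK was called higher in PFAS 11 (0.77) and lower in PFAS 12 (-0.68). Of 15 receptor genes, ITGA10, an integrin chain of chondrocytes, was called lower in PFAS 9, 10, 11, 12 and 13 (-0.89, -0.57, -1.05, -0.83 and -1.01), ITGB1 (ENSDARG00000022689) lower in PFAS 11 (-0.76) and the discoidin receptor DDR1 higher in PFAS 12 (0.42). The lists also held further genes named LOXL4, BMP1, TIMP2, MMP14 and ITGB1, which were called in no chemical.

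Markers of cell types were read as lists. Which of these cells make a given collagen was not tested. In PFAS 8 to 13, 1.74% to 8.52% of all genes tested were called lower and 2.1% to 7.63% higher. Among genes with at least 10 CPM these shares were 3.62% to 14.9% and 5.52% to 16.8%. MATN1, a matrilin of cartilage, had a mean of 5.74 CPM in the controls and 0.949, 0.450, 0.709, 0.351, 0.413 and 0.0417 CPM in PFAS 8 to 13, and it was called lower in all 6. SOX9 (ENSDARG00000043923), a gene named after a transcription factor of chondrocytes, was called higher in all 6 (0.36 to 0.51). MATN3 (ENSDARG00000069265) was called higher in PFAS 8, 10, 11 and 13 (0.56, 0.51, 0.30 and 0.70). A further SOX9 gene (ENSDARG00000003293) and a further MATN3 gene (ENSDARG00000069245) on the list were called in no chemical. Which of the SOX9 genes chondrocytes use was not tested. Called lower were OTOS (-2.11) and MATN4 (-0.26) in PFAS 11, both again in PFAS 13 (-4.33 and -0.23), and UCMA in PFAS 9 (-1.32). Over the 15 chondrocyte markers 1 or 2 were called higher and 1 to 4 lower in each chemical, and their summed level was 809 to 923 CPM in the controls, 901 to 1034 in PFAS 8, 794 to 860 in PFAS 9, 811 to 944 in PFAS 10, 786 to 899 in PFAS 11, 787 to 868.4 in PFAS 12 and 815 to 884 in PFAS 13. MATN1, at a mean of 5.74 CPM in the controls, makes up little of these sums, so they cannot show its decrease. The notochord markers (8 genes) had 0 or 1 called in each chemical, none of them lower. Fin fold markers, for which 66.7% of the listed names found a gene, had 2 of 4 called lower in PFAS 10, 11 and 13 and 1 in PFAS 9, with sums of 383 to 477 CPM in the controls, 292 to 389 in PFAS 9, 290.2 to 415 in PFAS 10, 262 to 309 in PFAS 11 and 231 to 349 in PFAS 13. Among them and2, an actinotrichia gene of the fin fold, was called lower in PFAS 9, 10, 11 and 13 (-0.54, -0.40, -1.09 and -0.85).

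Of 7 epidermis markers 5 were called higher in PFAS 12, namely TP63, krt5, ITGB4, krt91 and krt4 (0.59, 0.72, 0.58, 0.46 and 0.31). In PFAS 12, 6.77% of all genes were called higher, and 14.6% of those with at least 10 CPM. The sums of the 7 were 11081 to 14294 CPM against 9045 to 10469 in the controls. In these controls krt4 alone had a mean of 8857 CPM, so the sums of this list mostly follow krt4. In the same list krt15 was called lower in PFAS 9, 10, 11 and 13 (-0.65, -0.63, -1.12 and -0.92), ITGB4 higher in PFAS 10 (0.43), and krt4 higher and krt91 lower in PFAS 13 (0.19 and -0.43). The sums were 9381 to 12111 CPM in PFAS 8, 8586 to 10723 in PFAS 9, 8999.9 to 10201.5 in PFAS 10, 9662 to 11077.5 in PFAS 11 and 9769.7 to 13386 in PFAS 13, all overlapping with the controls. Of 7 fast muscle markers 1, 3, 2, 5, 3 and 5 were called lower in PFAS 8 to 13 and none higher, with sums of 22582 to 26161 CPM in the controls, 19667 to 21862 in PFAS 9, 19199 to 22784 in PFAS 11 and 18712 to 21804 in PFAS 13. The calls make up 14.3%, 42.9%, 28.6%, 71.4%, 42.9% and 71.4% of this list. Of all genes with at least 10 CPM, 3.62%, 7.8%, 14.3%, 14.2%, 13.2% and 14.9% were called lower. The fast myosin gene myhz2 was called lower in PFAS 8, 11, 12 and 13 (-0.30, -0.94, -0.37 and -0.84). Endothelial markers, for which 71.4% of names found a gene, had at most 2 of 5 called, cdh5 lower in PFAS 9 (-0.34) and higher in PFAS 10 (0.31), TIE1 higher in PFAS 10 (0.55) and flt1 higher in PFAS 13 (0.79). No marker named on these lists was at 0 in the mean of any of these groups. The mean of MATN1 in PFAS 13, given above, rests on very few reads and is limited by depth. The part of these cell types in the collagen decreases was not tested.

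The time course asked when a response to NB2 appears at a dose that malforms most larvae later on. Its values are variance-stabilized log2 expression as deposited, and they were tested with limma over 24853 genes. Differences are on that log2 scale, and for genes near the table's lowest value, 3.59, they can be smaller than log2 fold changes. Gene names come from the identifiers of another catalogue and cannot be tied to those of the 48 hpf counts above, so that genes with a like name in both are not taken as the same gene. At 48 hpf limma called 0 collagen genes (0% of all genes), beside 0 in the counts of PFAS 2, the same compound at 30 µM. An unadjusted p under 0.05 was seen there for 1 collagen gene, beside 4.81% of all genes. At 72 hpf none was called either (0.728% of all genes, smallest limma adjusted p 0.05183 for col28a1b). At that age 11 of 59 had an unadjusted p under 0.05, beside 13.4% of all genes. At 96 hpf 34 of 59 were called lower and 2 higher, where 18.4% of all genes were called, 10.2% were called lower and 8.22% higher. Among the 47 collagen genes above the median level of the genes tested 70.2% were called lower, beside 18.1% of all genes above that level. The median difference of the 59 genes was -0.35, against -0.024 for all genes.

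**Figure D4:**
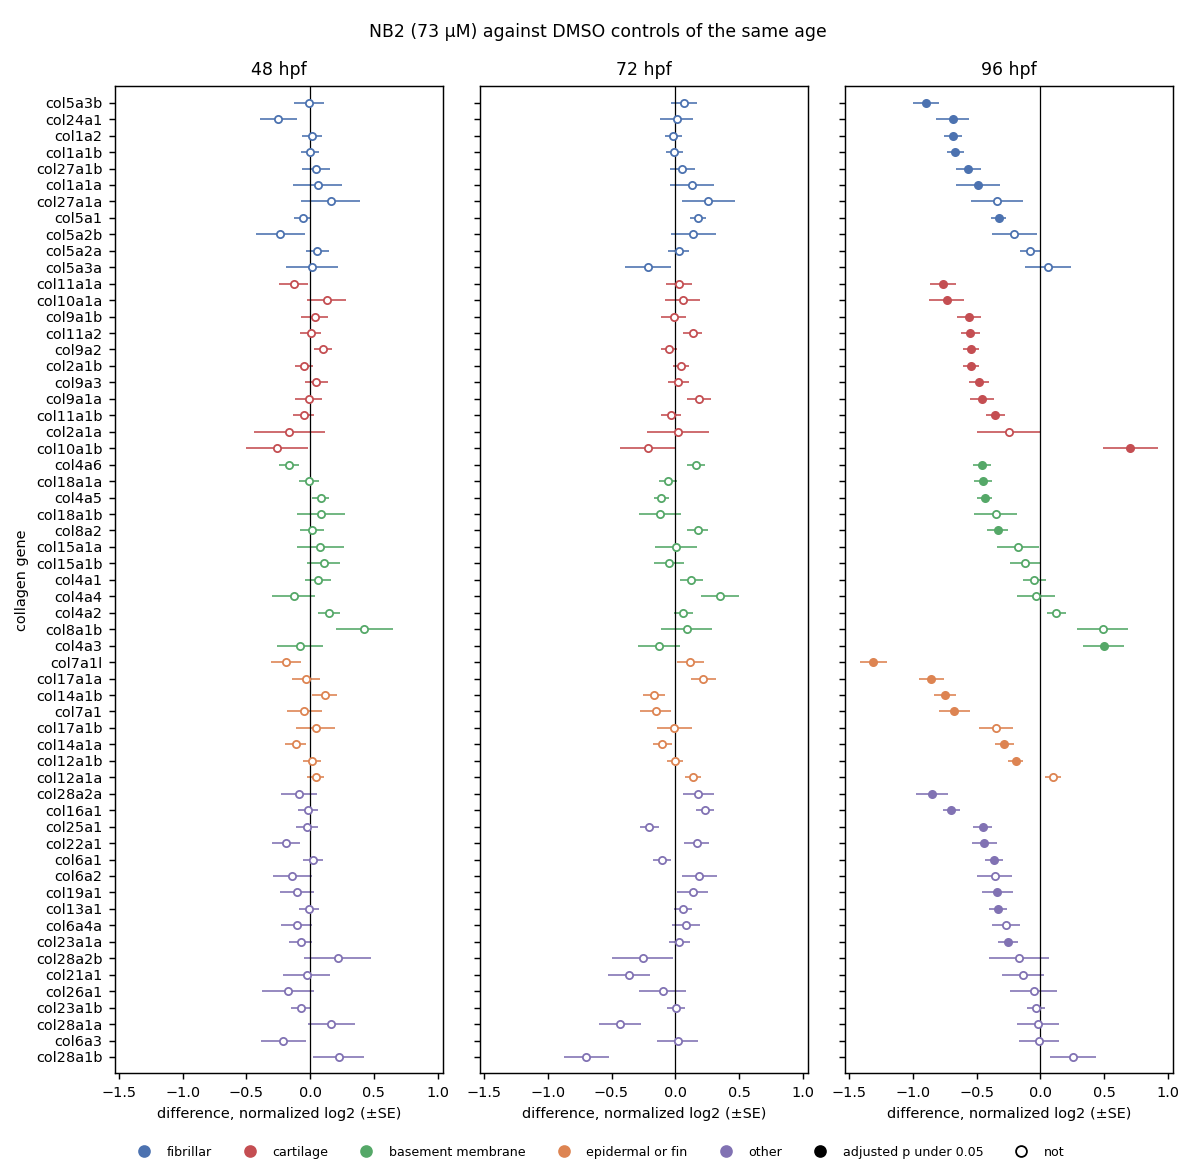
Log2 difference between NB2 and control columns (points, bars are SE) for each of the 59 collagen genes at 48, 72 and 96 hpf, by class, with genes called by limma as filled points. The median over all 59 is -0.01 at 48 hpf and 0.02 at 72 hpf, and at 96 hpf they are -0.49 (fibrillar), -0.54 (cartilage), -0.15 (basement membrane), -0.51 (epidermal or fin) and -0.27 (other).

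At 96 hpf 7 of 11 fibrillar genes were called lower. For col1a1b, a chain of type I collagen, the controls read 13.44, 13.48, 13.48, 13.33 and 13.39 and the NB2 columns 12.61, 12.98, 12.91, 12.79 and 12.50. The groups do not overlap, and the difference was -0.67 ± 0.07 (limma adjusted p = 3.754e-10), against -0.01 ± 0.07 at 72 hpf. The type V chain gene col5a3b read 8.62, 8.51, 8.56, 8.56 and 8.46 in the controls and 7.59, 7.55, 7.96, 7.66 and 7.46 in NB2, a difference of -0.90 ± 0.10. Named after their values were seen, col1a2 differed by -0.69 ± 0.07, col24a1 by -0.69 ± 0.13, col27a1b by -0.57 ± 0.10, col1a1a by -0.49 ± 0.17 and col5a1 by -0.33 ± 0.06, all with no NB2 column above the lowest control. The call of col1a1a was lost without Control-C column C or D or NB2 column A, B or D, and when only the 2 groups were fitted.

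Among the cartilage genes 9 of 11 were called lower and 1 higher. The type X gene col10a1a read 9.49, 9.72, 9.80, 9.60 and 9.56 in the controls and 8.73, 9.18, 8.94, 8.83 and 8.81 in NB2, with no overlap and a difference of -0.73 ± 0.14 (limma adjusted p = 0.0001071). The type IX genes changed by similar amounts, col9a1a by -0.46 ± 0.09, col9a2 by -0.55 ± 0.06 and col9a1b by -0.56 ± 0.10. For col9a2 the controls read 12.32, 12.34, 12.40, 12.23 and 12.37 and the NB2 columns 11.70, 11.90, 11.98, 11.71 and 11.64, again without overlap. Of the genes named after their values were seen, col2a1b, a gene of the main cartilage fibril chain, differed by -0.54 ± 0.06 and the type XI genes col11a1a, col11a2 and col11a1b by -0.76 ± 0.10, -0.55 ± 0.08 and -0.35 ± 0.08, again below every control. The gene called higher was col10a1b (0.71 ± 0.22, named after its values were seen), which stood at the lowest value of the table in 7 of 8 columns at 48 hpf, and whose call was lost without Control-C column A or NB2 column C.

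In the epidermal and fin class 6 of 8 were called lower. The largest difference of any collagen gene belonged to col7a1l, a gene named for its likeness to the anchoring fibril gene, with 7.82, 7.80, 7.70, 7.73 and 7.94 in the controls and 6.34, 6.86, 6.60, 6.41 and 6.24 in NB2. Every NB2 column was below every control, and the difference was -1.31 ± 0.10 (limma adjusted p = 2.847e-12). The hemidesmosome gene col17a1a read 10.66, 10.46, 10.51, 10.42 and 10.16 in the controls and 9.68, 9.84, 9.61, 9.67 and 9.13 in NB2, a difference of -0.86 ± 0.10, after 0.22 ± 0.10 without a call at 72 hpf. Named after their values were seen, the fibril-associated gene col14a1b differed by -0.75 ± 0.09, the anchoring fibril gene col7a1 by -0.68 ± 0.12, and col12a1a was not called (0.10 ± 0.06).

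Of the 17 other genes 8 were called lower, with the smallest p for col16a1, a fibril-associated chain. It read 9.76, 9.92, 9.83, 9.85 and 9.54 in the controls and 9.04, 9.22, 9.23, 8.98 and 8.94 in NB2 (-0.70 ± 0.07, limma adjusted p = 3.641e-10), and at 72 hpf it stood 0.23 ± 0.07 from the controls with a limma adjusted p of 0.09305, with all NB2 columns above all controls. Named after their values were seen, col28a2a differed by -0.85 ± 0.12 and the type VI gene col6a1 by -0.36 ± 0.07, while col6a2 (-0.36 ± 0.14) and col6a3 (-0.01 ± 0.16) were not called. The gene col6a3 was above the table's lowest value, 3.59, in only 7 of 28 columns, with a mean of 3.71. Its difference is therefore limited by that floor and cannot show whether it changed. Of the 12 basement membrane genes 4 were called lower and 1 higher. In this class col18a1a differed by -0.45 ± 0.07 and col8a2 by -0.34 ± 0.08, the latter with overlapping groups. Among the type IV genes, named after their values were seen, col4a6 and col4a5 were called lower (-0.46 ± 0.07 and -0.44 ± 0.06), col4a3 was called higher (0.50 ± 0.16, with overlap, lost without Control-C column B, C or D or NB2 column B, C or E), and col4a1 and col4a2 were not called (-0.05 ± 0.09 and 0.12 ± 0.08).

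The change of the NB2 effect between times was tested as an interaction in the same fit. From 72 to 96 hpf the effect became more negative in 27 collagen genes and more positive in 2 (12.2% of all genes changed, 6.5% to the negative and 5.69% to the positive). From 48 to 96 hpf it became more negative in 22 and more positive in 0 (7.25% of all genes, 3.46% and 3.79%). Between 48 and 72 hpf 0 changed (0.197% of all genes), and 9 of the 59 had an unadjusted p under 0.05, beside 12% of all genes. The change from 72 to 96 hpf was -1.43 ± 0.15 for col7a1l, -1.08 ± 0.14 for col17a1a, -0.93 ± 0.10 for col16a1 and -0.79 ± 0.19 for col10a1a. Both tests against 96 hpf share the columns of that age.

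The controls alone show how the collagen genes moved with age. From 48 to 72 hpf 18 of 59 rose and 13 fell (25.6% of all genes changed, 13% rose and 12.6% fell). In the cartilage class 7 rose and 1 fell, led by col10a1a, which read 7.02, 6.71, 6.44 and 7.02 at 48 hpf and 8.88, 8.76, 8.87, 9.00 and 9.23 at 72 hpf, a rise of 2.15 ± 0.15 (limma adjusted p = 7.98e-15). The gene col9a1a rose by 1.5 ± 0.10 and col9a2 by 0.89 ± 0.07, whereas col9a1b changed by -0.27 ± 0.10, a call lost in 9 of 13 alternatives (limma adjusted p up to 0.1595), 7 of which leave out 1 control column of either age. In the basement membrane class col8a2 read 7.59, 7.49, 7.57 and 7.61 at 48 hpf and 9.31, 9.31, 9.21, 9.23 and 9.15 at 72 hpf, a rise of 1.68 ± 0.09. In the epidermal class col17a1a rose by 0.60 ± 0.10 and col7a1l changed by -0.35 ± 0.11.

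From 72 to 96 hpf 5 collagen genes rose and 10 fell in the controls (17.6% of all genes changed, 9.77% rose and 7.83% fell). A fit of these groups alone called 7 higher and 16 lower. The rise of col10a1a continued at 0.68 ± 0.14, and col5a3b (-0.71 ± 0.10), col9a1b (-0.66 ± 0.10) and col18a1a (-0.38 ± 0.07) fell. At 96 hpf the NB2 columns of col10a1a, between 8.73 and 9.18, lay close to the 8.76 to 9.23 of the controls at 72 hpf, a comparison that was not tested. The genes col5a3b, col9a1b and col18a1a, which fell with age, were called lower again in NB2 at 96 hpf, so their NB2 means were below the controls of both ages. These genes are examples, and how the NB2 columns stand to younger controls was not tested over the collagen genes.

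**Figure D5:**
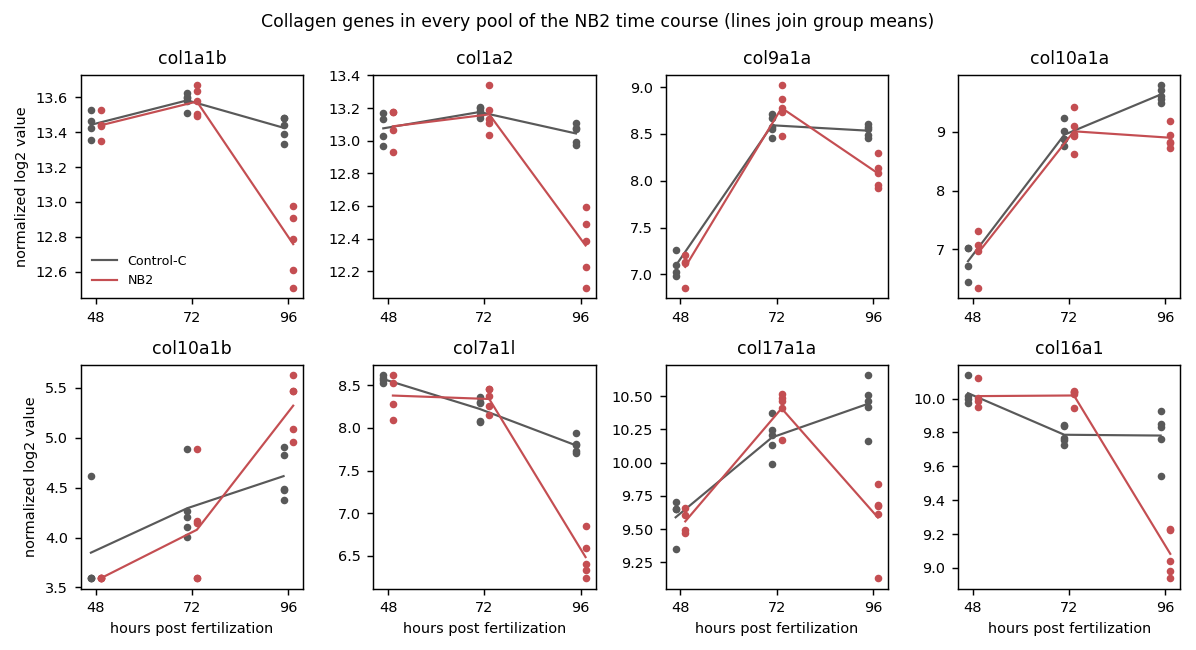
Deposited log2 expression per column (points) and group means (lines) of 8 collagen genes at 48, 72 and 96 hpf in controls and NB2. At 48 and 72 hpf the groups overlap, except for col16a1 at 72 hpf, and at 96 hpf they lie apart, where col7a1l differs by -1.31 and col10a1a by -0.73, and col10a1a rises by 2.15 in the controls from 48 to 72 hpf.

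Around the collagen genes at 96 hpf, where 18.4% of all genes were called, 9 of 28 folding and modification genes were called lower and 2 higher. The chaperone genes serpinh1b and serpinh1a differed by -0.60 ± 0.11 and -0.45 ± 0.11, and the prolyl 3-hydroxylase complex genes p3h1 and crtap by -0.69 ± 0.09 and -0.55 ± 0.13. Of 20 cleavage and crosslinking genes 4 were called higher and 3 lower, with the lysyl oxidase gene loxl2a at 1.31 ± 0.14. Of 18 breakdown genes 5 were called higher and 2 lower, among them mmp9 (1.75 ± 0.19), ctsba (1.14 ± 0.16) and the collagenase gene mmp13a (0.84 ± 0.17). Of 12 receptor genes 4 were called lower and 0 higher, with itga10 at -0.71 ± 0.13.

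Some cell type markers were called as well at that age. Of 12 chondrocyte markers 5 were called lower (epyc at -0.85, matn1 at -0.59, cnmd at -0.51, matn4 at -0.43 and ucmab at -0.33). Lower calls were also made on 3 of 6 fin fold markers (and1 at -1.05, and3 at -0.60 and hmcn2 at -0.55). The same holds for 2 of 7 epidermis markers (krt4 at -1.12 and krt91 at -0.72), 2 of 7 notochord markers and 2 of 7 fast muscle markers. Of 4 endothelial markers 0 were called, and none of these lists had a gene called higher. Over all genes 10.2% were called lower, and 18.1% of those above the median level. The median differences of the lists were -0.31 (chondrocyte), -0.38 (fin fold), -0.15 (epidermis), -0.25 (notochord), -0.16 (fast muscle) and 0.074 (endothelium), beside -0.35 for the collagen genes. At 72 hpf no marker on these lists was called. The part of these cell types in the decrease of the collagen genes was not tested.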

How the data were processed

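RNA was sequenced from the 3′ end (QuantSeq) in 70 libraries at 48 hpf and in the NB2 time course. The deposited values of the time course cover 28 of its 30 labelled samples. The authors aligned reads to GRCz11 and counted them per gene on the stranded setting, and they deposited the raw counts per flow cell run, which were summed here per library after the authors' filter on low counts. For the time course the authors deposited variance-stabilized log2 values from DESeq2. Aligner and counter versions are not given in the sources used here. Deposited tables of the authors' own fold changes, p-values and enriched terms were not used.

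Counts were fitted in 1 model of 69 libraries with edgeR 4.0.16 (TMM scaling, quasi-likelihood test, filterByExpr at its count minimum of 10 and total minimum of 15, 21928 genes) in R 4.3.3, with Benjamini-Hochberg adjustment over all genes. The log2 values were fitted with limma 3.58.1 (mean trend, 24853 genes above the table's lowest value, 3.59, in 4 columns or more). Scripts were tested on simulated data. DESeq2 1.42.0, other scaling, other filters, blocks and leaving out each library were alternatives. For the counts, leaving out a library kept the genes tested and the trended dispersions of the main fit. Only the scaling and the quasi-likelihood dispersions were then fitted again.

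Gene names came from tables that pair identifiers with symbols, for the time course from RefSeq. Its columns carry letters that the labels do not tie to replicates, so they were used as replicates of their group only. Members, classes and gene lists were chosen with earlier results of these data known. Named with values were the 4 members of each class with the highest mean level, members called with a log2 fold change of at least 1 either way, the 3 members with the smallest p in each comparison with a call, and genes among the 6 called most often in each list, the rest of which are given by counts. Other names were chosen after their values were seen, among them all list genes of the time course. At a median depth of 23474909.5 counts a gene at 10 CPM has over 200 reads per library, and intervals for single genes are at the 95% level.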

Additional observations from a re-analysis of the deposited data

Results flagged for a closer look

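In 96 class sums and 127 groups of named collagen genes, 4 and 5 had a library far from the rest of its group by Dixon's criterion, which chance alone meets in about 1 of 20 groups. Among the class sums these were the cartilage sum of PFAS 4 replicate 2 (3145 CPM, the nearest library at 3068), the basement membrane sum of PFAS 11 replicate 2 (357.1 CPM, nearest 349.7), the epidermal or fin sum of PFAS 3 replicate 4 (306 CPM, nearest 349.3) and the sum of the other collagens in PFAS 4 replicate 1 (228.3 CPM, nearest 198.8). Among the genes these were COL8A1 in PFAS 10 replicate 2 (0.321 CPM, nearest 0.06098), COL9A1 in PFAS 7 replicate 4 (48.95 CPM, nearest 38.53), COL1A1 (ENSDARG00000035809) in Control-A replicate 5 (874.1 CPM, nearest 945.2), and in PFAS 13 replicate 2 both col9a3 (53.34 CPM, nearest 46.57) and col17a1a (44.59 CPM, nearest 34.8). In COL9A1 of PFAS 7 and in col17a1a of PFAS 13 the library that stands apart is the one closest to the controls.

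The effect of NB2 differed between times in 29 collagen genes (96 against 72 hpf) and 22 (96 against 48 hpf) by the interaction test of limma. The change from 72 to 96 hpf, in log2 units, was -0.395 for col18a1a, -0.513 for col8a2, -0.496 for col9a2, -0.546 for col9a1b, -0.793 for col10a1a, -0.641 for col9a1a, -1.08 for col17a1a, -1.43 for col7a1l, -0.661 for col1a1b, -0.968 for col5a3b and -0.93 for col16a1. From 48 to 96 hpf it was -0.44 for col18a1a, -0.648 for col9a2, -0.597 for col9a1b, -0.865 for col10a1a, -0.444 for col9a1a, -0.826 for col17a1a, -1.12 for col7a1l, -0.665 for col1a1b, -0.889 for col5a3b and -0.681 for col16a1. The one for col9a1a from 48 to 96 hpf was lost in 15 of 21 alternatives (limma adjusted p up to 0.1032), and no other of these was lost.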

How the results depend on the processing

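No collagen call changed its sign under any alternative run. Of the 86 calls in the 48 hpf counts DESeq2 kept 84, its size factors in edgeR 85, the deposited table without a further filter 79, and with PFAS 5 replicate 1 included PFAS 5 still had 0. Of the 133 calls in the time course a fit without the mean trend kept 113, no filter 127 and a stricter filter 128 (5 genes were then not tested), and fits of only the groups compared kept 78 of 82. The count changed sides or moved by more than 1.5 times in few places. PFAS 7 went from 0 to 1 with DESeq2 and to between 0 and 1 when 1 library was left out (1 without Control-A replicate 6). NB2 at 72 hpf gave 0 to 1 (1 without column C of NB2), and the change of its effect from 48 to 72 hpf 0 to 1 (1 without NB2 column D at 48 hpf or column C at 72 hpf). The controls at 96 against 72 hpf gave 23 in place of 15 when only these groups were fitted. The cause was not tested. Leaving out 1 library gave 5 to 7 calls in PFAS 8, 13 to 19 in PFAS 9, 8 to 12 in PFAS 10, 13 to 17 in PFAS 11, 10 to 14 in PFAS 12, 13 to 18 in PFAS 13, 32 to 37 for NB2 at 96 hpf, 24 to 31 and 13 to 17 in the controls over time and 26 to 30 and 20 to 24 for the change of the NB2 effect to 96 hpf. In the time course the replicate numbers of the labels could not be tied to columns, so no block was fitted there. In the counts the numbers did not pair the libraries (13 of 59 same-numbered pairs had a correlation over 0.1, and no chemical had all of them over it, range -0.137 to 0.338). A replicate block by number kept 76 of 86 calls and one by collection day 80. Of the 17 calls at 48 hpf on genes named after their values were seen, 13 were lost when 1 library was left out, 6 with the block by number and 3 with that by day, and 4 held throughout. The list genes other than collagens were fitted once and not under the alternatives. Genes with few reads, such as COL8A1, are limited by depth.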
